A study of Mus musculus with 20 samples.

Results

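The genes described here build, crosslink and degrade the extracellular matrix of the mouse heart ventricle: collagens, laminins, matrix metalloproteinases (MMPs) and their inhibitors, elastic fibre genes, and a small set of matricellular proteins and proteoglycans. Members were chosen by gene symbol, among probe sets that name a single gene, with earlier results of these data known. The rule took every collagen chain, laminin chain, Mmp, Timp, fibulin, fibrillin and Lox family symbol on the array, together with Fn1, Sparc, Postn, Dcn, Bgn, Lum, Vcan, Eln and Ccn2 (connective tissue growth factor, formerly Ctgf). It found 70 genes of the 8251 with a probe set of their own, carried on 100 of 12422 probe sets. The brightest probe set of a gene stood for it, judged over the 19 arrays with a group. Of the 70 genes 50 were bright enough to be tested, and 20 were too dim.

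The study asked how expression of the tetracycline-controlled transactivator tTA affects the heart, and it measured transcripts with Affymetrix arrays. The labels gave 4 groups of ventricle samples: FVBN control (2 arrays), FVBN + Doxy (4 arrays), tTA (8 arrays) and tTA + Doxy (5 arrays). The FVBN control group is wild-type FVBN mice with no Doxy named, and FVBN + Doxy is the same strain given Doxy, read here as doxycycline, the antibiotic that stops tTA from binding its operator. The tTA group is FVBN mice expressing tTA, with the alpha MHC promoter named in the labels' keywords, and tTA + Doxy is the same genotype given Doxy. That promoter is active in cardiac muscle cells, so the transgene is not directed to fibroblasts, the main makers of fibrillar collagen. Age, sex, Doxy dose and length of treatment are not in the labels. Arrays are named by their label numbers. Whether each array is a separate animal is not said in the labels, so the p-values speak only to the spread among these samples. No stretch of array numbers holds both genotypes, or arrays with and without Doxy, so cohort and group cannot be told apart.

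The matrix around heart muscle is a network of fibrillar collagen I and III that carries load between cells, with a basement membrane of collagen IV and laminin wrapped around each muscle cell and capillary. Elastin, fibulins and the crosslinking lysyl oxidases give vessels and the interstitium their recoil. Metalloproteinases cut these proteins, and the tissue inhibitors of metalloproteinases (TIMPs) hold the proteases in check. In injured or overloaded hearts, fibroblasts are known to raise collagen I, collagen III, periostin and Ccn2 together.

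The arrays were closely alike. Median deposited intensity ran from 60.74 to 62.45, and arrays of 1 group correlated with each other over all probe sets at r = 0.9927 to 0.9982. All 12 cardiomyocyte markers were bright enough to be tested, from 5.63 for Actn2 to 12.57 for Myl2 in mean log2 intensity. Of 4 atrial markers 3 were bright enough too, with Nppa at 8.12, Myl4 at 6.32 and Sln at 5.52, while Myl7 was too dim. Lep of the adipocyte list (8.26) and Myh4 of the skeletal muscle list (7.35) were also bright enough. Being bright enough to test therefore does not by itself tell ventricle from other tissue. The 3' against 5' signal of the beta-actin control probe sets, as a log2 ratio and a sign of RNA quality, was 0.549 ± 0.0082 (SD, n = 2) in FVBN control and 0.509 ± 0.079 (n = 4) in FVBN + Doxy. It was lower in tTA (0.323 ± 0.11, n = 8) and tTA + Doxy (0.362 ± 0.06, n = 5). Single arrays did not overlap between FVBN control (0.543 to 0.555) and tTA (0.145 to 0.445). They did between FVBN + Doxy (0.407 to 0.6) and tTA + Doxy (0.27 to 0.419). The Gapdh ratio lay between -0.117 and 0.128 with no such split. The beta-actin ratio therefore moved with genotype, and each call of a member at its brightest probe set is given with that ratio in the fit as well. The calls at other probe sets and in the gene lists were not refitted with it. The number of arrays, above all the 2 of FVBN control, limits the precision.

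Few matrix genes differed between groups. A change was called where the adjusted p from limma, over all tested probe sets of a comparison, was below 0.05. In tTA against FVBN control, 1 of 50 members rose (Loxl1) and none fell, against 2.95% of all 5658 tested genes called, 1.01% higher and 1.94% lower. With Doxy, tTA against FVBN, 3 of 50 members fell (Fbln1, Eln and Lama5) and none rose, against 6.20% of all genes called, 4.54% higher and 1.66% lower. Averaged over both conditions, the genotype difference was called for 3 members, all lower (Fbln1, Lamb2 and Lama5), against 9.56% of all genes, 5% higher and 4.56% lower. The 5 different genes called are therefore a small share, close to or below that of all genes in each comparison taken over both directions.

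Doxy itself gave no call among the members. In FVBN + Doxy against FVBN control limma called 0 of 50 members at an adjusted p below 0.05, against 0.0353% of all genes. At an unadjusted p below 0.05 were 7 of 50 members and 690 of 5658 genes. In tTA + Doxy against tTA it called 0 of 50, against 0.0707% of all genes. There 8 members and 443 genes had an unadjusted p below 0.05. The interaction, which subtracts the Doxy difference of FVBN from that of tTA, also had 0 called, against 0.0177% of all genes. There 9 members and 848 genes had an unadjusted p below 0.05. The same unadjusted counts were 5 members and 978 genes in tTA against FVBN control. They were 12 and 1235 in the genotype difference under Doxy, and 7 and 1241 in the averaged one.

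The small differences were tilted in some comparisons. In the genotype difference under Doxy 38 of 50 members were lower in tTA, with a median log2 difference of -0.0796, while 3147 of 5658 tested genes were lower and their median was -0.0134. In tTA + Doxy against tTA 42 of 50 were lower, with a median of -0.0375 against -0.00618 for all genes. In FVBN + Doxy against FVBN control 33 of 50 were higher, with a median of 0.0620 against 0.00956. In tTA against FVBN control 32 of 50 were higher, with a median of 0.0198 against 0.0147. The interaction, built from the same arrays, was negative for 39 of 50 members, and for 31 of 50 after median scaling of the arrays. Median scaling also made the other tilts smaller. Under it 33 of 50 members were lower in the genotype difference under Doxy (median -0.062) and 36 of 50 in tTA + Doxy against tTA (median -0.026). In FVBN + Doxy against FVBN control 21 of 50 were then lower, where 17 had been, and in tTA against FVBN control 23 were, where 18 had been (medians 0.037 and 0.0055). Comparisons that share a group of arrays are not independent of each other, and these counts carry no test.

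**Figure D1:**
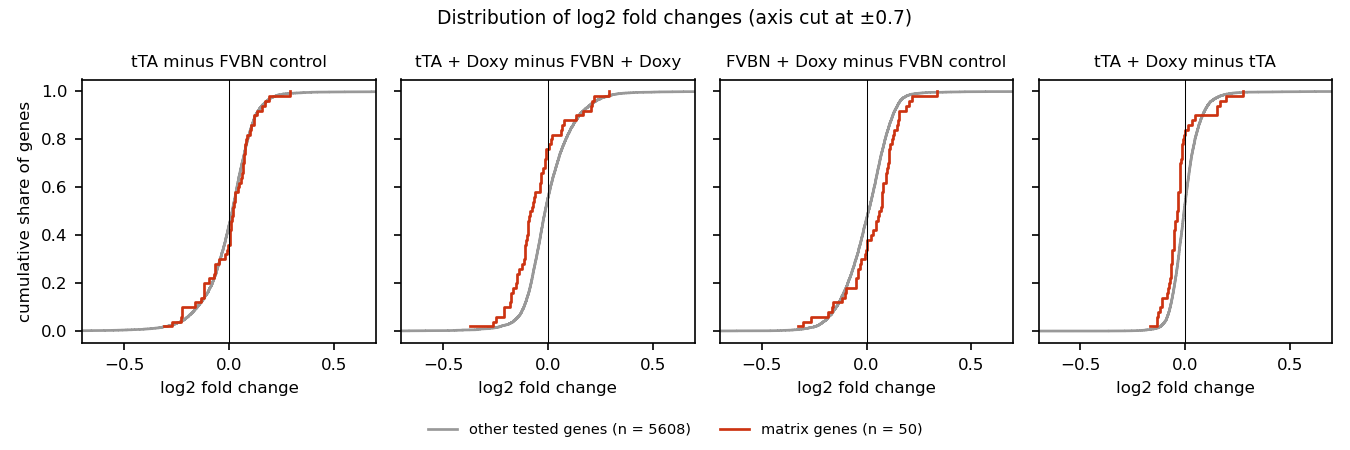
Cumulative share of genes (vertical axis) by log2 fold change (horizontal axis, from -0.7 to 0.7) in 4 comparisons, for the 50 tested matrix genes (red) and all other tested genes (grey). The red line lies to the left of the grey one in tTA + Doxy minus FVBN + Doxy, where 38 of 50 members were lower, and close to it in tTA minus FVBN control.

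Groups that did not overlap were no more frequent among members than among all genes in any comparison by more than 2 percentage points. Members without overlap were 6 of 50 (12%) in tTA against FVBN control, where 13% of all genes did not overlap. They were again 6 of 50 (12%) in the genotype difference under Doxy, beside 10.1% of all genes. They were 12 of 50 (24%) in FVBN + Doxy against FVBN control, beside 24.2% of all genes, and 0 of 50 in tTA + Doxy against tTA, beside 0.389%.

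**Figure D2:**
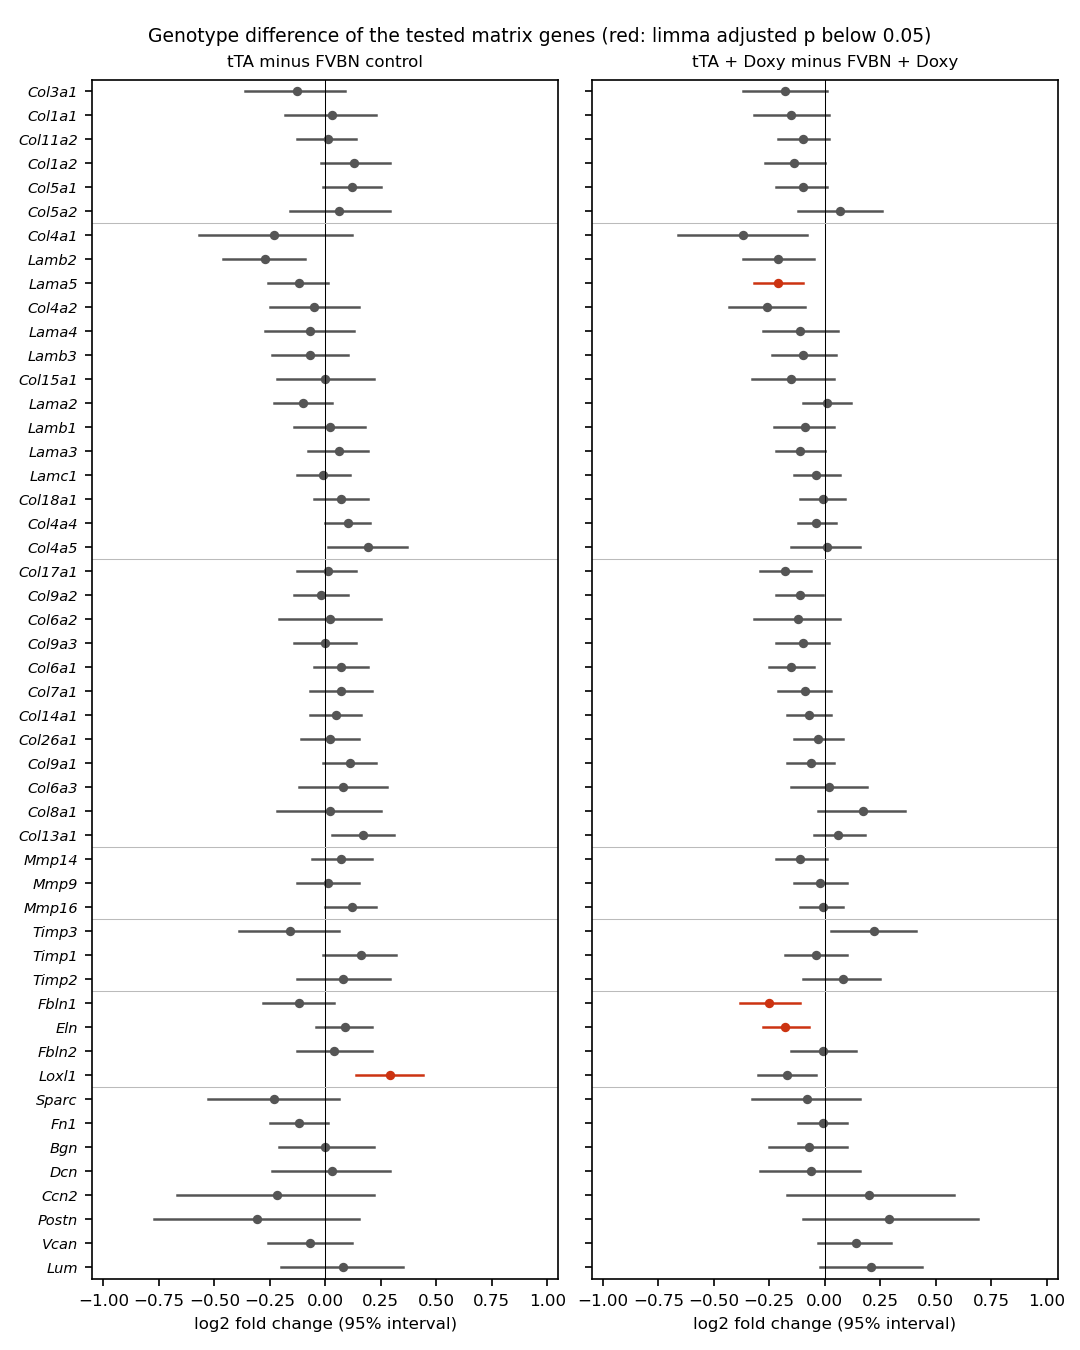
Log2 fold change with its 95% interval (horizontal axis) for each of the 50 tested matrix genes (vertical axis, grouped by role from fibrillar collagens at the top to matricellular genes and proteoglycans at the bottom) in the 2 genotype comparisons. Called genes are red: Loxl1 at 0.29 without Doxy, and Fbln1, Eln and Lama5 at -0.25, -0.18 and -0.21 with Doxy.

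Of the 4 elastic fibre and crosslinking genes tested, 1 rose in tTA against FVBN control, where 2.95% of all tested genes were called. In tTA + Doxy against FVBN + Doxy 2 fell, where 6.20% of all tested genes were called. These were the most calls of any role, but the role is small and its share was not tested. Loxl1 encodes a lysyl oxidase that crosslinks elastin (GRCm38.p6 chromosome 9, 58287723 to 58313212). Its log2 intensity was 5.49 and 5.61 on the FVBN control arrays. On the 8 tTA arrays it ran from 5.71 to 5.96 with a median of 5.84, so every tTA array lay above both controls. The difference was 0.29 ± 0.07 (SE, 95% interval 0.14 to 0.44, 1.22-fold, limma adjusted p = 0.0315, higher in 8 of 8 tTA arrays). With the beta-actin ratio in the fit it was 0.25 (adjusted p = 0.369). The call rested on both controls, since the adjusted p was 0.441 without array 8177 and 0.105 without array 8182.

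Under Doxy the order for Loxl1 was the other way. Intensities were 5.78, 5.81, 6.06 and 5.90 in FVBN + Doxy and 5.77, 5.69, 5.73, 5.76 and 5.67 in tTA + Doxy, again with no overlap. The difference of -0.17 ± 0.06 did not pass (limma adjusted p = 0.126). FVBN + Doxy lay 0.34 ± 0.08 from FVBN control (limma adjusted p = 0.169), and the interaction was -0.46 ± 0.10 (95% interval -0.66 to -0.26, limma adjusted p = 0.114), so neither passed. The 2 low FVBN control arrays enter 3 of these 4 differences.

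Fbln1 encodes fibulin, a glycoprotein of elastic fibres and basement membranes (chromosome 15, 85205949 to 85286294). Its log2 intensity was 8.57, 8.63, 8.64 and 8.74 in FVBN + Doxy. In tTA + Doxy it was 8.47, 8.40, 8.31, 8.42 and 8.40, and no array of one group reached the other. The difference was -0.25 ± 0.07 (95% interval -0.38 to -0.11, 1.19-fold lower, limma adjusted p = 0.0267, lower in 5 of 5 arrays). Without Doxy, intensities were 8.69 and 8.62 in FVBN control and 8.33 to 8.71 in tTA (median 8.59), and the difference of -0.12 ± 0.08 did not pass (limma adjusted p = 0.459). The averaged genotype difference was -0.18 ± 0.05 (limma adjusted p = 0.0254). With the beta-actin ratio in the fit, the values were -0.20 (adjusted p = 0.122) under Doxy and -0.12 (adjusted p = 0.439) averaged. The call under Doxy did not pass without array 8340, 8341, 7485 or 7488 (limma adjusted p = 0.0565, 0.105, 0.0761 and 0.0542) or after median scaling of the arrays (-0.20, limma adjusted p = 0.0962), and the averaged call did not pass without array 8177, 8182 or 8341 (limma adjusted p = 0.146, 0.0741 and 0.0519).

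Fbln1 has 3 further tested probe sets, and they did not give the same answer. A dimmer probe set showed a fall in tTA both without Doxy (-0.26 ± 0.06, limma adjusted p = 0.0275) and with it (-0.30 ± 0.05, limma adjusted p = 0.0023). There the FVBN arrays of both kinds read 7.07 to 7.25 and all 13 tTA arrays 6.79 to 7.05, with no overlap. The other two gave -0.12 ± 0.05 (limma adjusted p = 0.201) and -0.08 ± 0.06 (limma adjusted p = 0.461) under Doxy. The averaged difference was -0.28 ± 0.04 at the dimmer probe set that fell (limma adjusted p = 0.000156), and -0.07 ± 0.04 and 0.01 ± 0.05 at the other two (limma adjusted p = 0.405 and 0.943).

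Eln, the gene of elastin (chromosome 5, 134702595 to 134747368), was 7.92 and 7.95 in FVBN control and 8.18, 8.09, 8.15 and 8.05 in FVBN + Doxy. It was 7.94 to 8.08 in tTA (median 8.02) and 8.10, 7.92, 7.92, 7.84 and 7.94 in tTA + Doxy. Under Doxy 4 of the 5 tTA arrays lay below every FVBN array, and array 7399 lay among them. The difference was -0.18 ± 0.05 (95% interval -0.28 to -0.07, 1.13-fold lower, limma adjusted p = 0.0355, lower in 5 of 5 arrays). It was -0.20 with the beta-actin ratio in the fit (adjusted p = 0.0519) and -0.14 after median scaling of the arrays (adjusted p = 0.0828). The call did not pass without array 8337, 8340, 7424, 7485, 7486 or 7488 (limma adjusted p = 0.111, 0.0922, 0.0617, 0.0823, 0.0964 and 0.0715). Without Doxy the difference was 0.09 ± 0.06 (limma adjusted p = 0.488), and FVBN + Doxy, the common reference of the call, lay 0.19 ± 0.06 above FVBN control (limma adjusted p = 0.355). Fbln2, another fibulin gene, gave -0.01 ± 0.07 under Doxy (95% interval -0.15 to 0.14) and 0.15 ± 0.06 in tTA + Doxy against tTA (limma adjusted p = 0.547). Lox and Fbn2 were too dim to be tested.

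**Figure D3:**
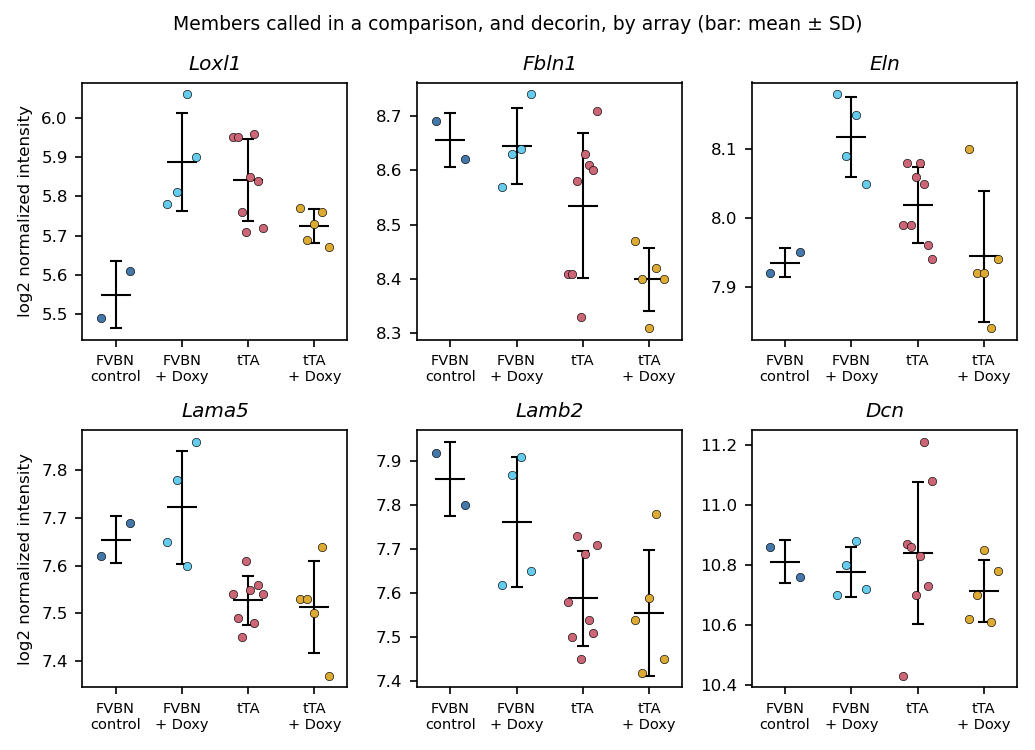
Log2 normalized intensity (vertical axis) of the 5 called genes and of decorin (Dcn) on each array, by group (horizontal axis); each point is an array, and bars give the mean ± SD. All 8 tTA arrays lie above both FVBN control arrays for Loxl1, all 5 tTA + Doxy arrays lie below the 4 FVBN + Doxy arrays for Fbln1, and the groups overlap for Dcn.

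The basement membrane genes called at their brightest probe set were all lower in tTA hearts. Of 14 tested, 1 fell under Doxy (Lama5), where 6.20% of all tested genes were called. In the averaged genotype difference 2 fell (Lamb2 and Lama5), where 9.56% of all tested genes were called, and none rose. Whether the role differs from all genes was not tested. In that average a probe set other than the brightest also fell for Lamb3, the gene of another laminin beta chain (-0.23 ± 0.07, limma adjusted p = 0.0358), and for Col18a1, of collagen XVIII (-0.14 ± 0.04, limma adjusted p = 0.0476). Other tested probe sets of Col18a1 gave -0.09 ± 0.05 and 0.01 ± 0.03, and the brightest gave 0.03 ± 0.04 for Col18a1 and -0.08 ± 0.05 for Lamb3. The 14 genes had a median log2 difference of -0.029 without Doxy and -0.102 with Doxy, and 12 of 14 were lower with Doxy. Lama5 and Lamb2 encode an alpha and a beta chain of laminin, which join in the laminins of vessel and muscle basement membranes. Together with Fbln1 they were the members lower in the averaged comparison, and RefSeq start sites of all 3 were listed. Fbln1 has 2 listed starts, of which the most upstream is used here. Their upstream sequences (GRCm38.p6, bases before the annotated gene, 5′ to 3′ on the gene's strand) follow. Capitals mark GGGCGG, the core of a GC box, or its reverse complement CCGCCC.
Lama5, chr2:180225905-180226109, minus strand: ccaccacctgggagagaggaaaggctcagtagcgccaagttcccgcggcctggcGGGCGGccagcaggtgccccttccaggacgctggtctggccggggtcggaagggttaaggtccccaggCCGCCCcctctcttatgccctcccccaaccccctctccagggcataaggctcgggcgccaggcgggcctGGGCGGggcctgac
Lamb2, chr9:108479612-108479846, plus strand: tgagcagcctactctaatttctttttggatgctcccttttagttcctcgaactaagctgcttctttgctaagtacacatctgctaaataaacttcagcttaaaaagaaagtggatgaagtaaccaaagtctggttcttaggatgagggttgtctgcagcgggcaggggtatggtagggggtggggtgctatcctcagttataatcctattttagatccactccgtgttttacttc
Fbln1, chr15:85205699-85205948, plus strand: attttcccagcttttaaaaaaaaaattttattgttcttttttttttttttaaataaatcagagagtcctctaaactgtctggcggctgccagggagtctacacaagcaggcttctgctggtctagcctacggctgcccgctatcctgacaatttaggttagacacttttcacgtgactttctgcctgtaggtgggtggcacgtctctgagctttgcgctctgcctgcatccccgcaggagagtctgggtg
The Lama5 stretch of 205 bases has a GC content of 71.7% and holds the motif 3 times. The Lamb2 stretch of 235 bases (43% GC) and the Fbln1 stretch of 250 bases (46.4% GC) hold it 0 times. So the 3 printed stretches did not share this feature, and the other listed Fbln1 start is not printed. Over the 250 bases before each start, on both strands, GGGCGG was in 32.7% of 32851 listed promoters, and by gene in 35.4% of all genes and 23 of the 45 members with an entry (51.1%). TATAAA was in 10 of 45 members (22.2%, against 14.3% of genes) and CCAAT in 15 of 45 (33.3%, against 37.5%). None of the 3 printed stretches holds TATAAA or CCAAT on either strand.

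Lama5 (chromosome 2, 180176373 to 180225904) read 7.65, 7.78, 7.60 and 7.86 in FVBN + Doxy and 7.53, 7.53, 7.50, 7.64 and 7.37 in tTA + Doxy. Array 7486 of tTA + Doxy lay within the FVBN + Doxy range and the other 4 lay below it. The difference was -0.21 ± 0.05 (95% interval -0.32 to -0.10, 1.16-fold lower, limma adjusted p = 0.0252, lower in 5 of 5 arrays). In FVBN control the gene read 7.62 and 7.69 and in tTA 7.45 to 7.61 (median 7.54), all 8 below both controls, but the difference of -0.12 ± 0.06 did not pass (limma adjusted p = 0.351). The averaged difference was -0.17 ± 0.04 (limma adjusted p = 0.0152). With the beta-actin ratio in the fit, the values were -0.20 (adjusted p = 0.0716) under Doxy and -0.16 (adjusted p = 0.203) averaged. The call under Doxy did not pass without array 8338, 8341, 7485 or 7488 (limma adjusted p = 0.067, 0.118, 0.0548 and 0.077) or after median scaling of the arrays (-0.17, limma adjusted p = 0.0782), and the averaged call did not pass without array 8182 (limma adjusted p = 0.12). A dimmer Lama5 probe set gave -0.08 ± 0.06 under Doxy (limma adjusted p = 0.474) and 0.03 ± 0.07 without it (limma adjusted p = 0.873). Its averaged difference was -0.02 ± 0.05 (limma adjusted p = 0.863), so neither call of Lama5 was repeated there.

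Lamb2 (chromosome 9, 108479847 to 108490530) read 7.92 and 7.80 in FVBN control, and 7.45 to 7.73 in tTA with a median of 7.56. In FVBN + Doxy it read 7.62, 7.87, 7.91 and 7.65, and in tTA + Doxy 7.54, 7.42, 7.59, 7.78 and 7.45. All 8 tTA arrays lay below both controls, while under Doxy the groups overlapped. Neither difference passed alone (-0.27 ± 0.09, limma adjusted p = 0.109, and -0.21 ± 0.08, limma adjusted p = 0.113), but their average did, at -0.24 ± 0.06 (95% interval -0.36 to -0.12, 1.18-fold lower, limma adjusted p = 0.0116). With the beta-actin ratio in the fit the average was -0.06 (adjusted p = 0.709), the largest move of any of the 7 calls under that ratio. Without array 8177 it was -0.21 (adjusted p = 0.104).

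Col4a1 and Col4a2, which encode the chains of the main collagen IV network, lie head to head on chromosome 8, and their annotated spans overlap by 85 bases (11198423 to 11312889 and 11312805 to 11449287). Under Doxy both were lower on every tTA array than on any FVBN array, and neither passed. Col4a1 read 9.26, 9.02, 9.23 and 9.14 in FVBN + Doxy and 8.80, 8.93, 8.83, 8.74 and 8.64 in tTA + Doxy, a difference of -0.37 ± 0.14 (95% interval -0.66 to -0.08, limma adjusted p = 0.124). Col4a2 read 9.58, 9.49, 9.56 and 9.62 against 9.26, 9.36, 9.30, 9.35 and 9.24, a difference of -0.26 ± 0.08 (95% interval -0.43 to -0.09, limma adjusted p = 0.0621). In FVBN control the 2 arrays stood apart from each other, at 8.71 and 9.45 for Col4a1 and 9.16 and 9.67 for Col4a2. Array 8177 was the lower for both. Without it the averaged genotype difference was -0.48 for Col4a1 (limma adjusted p = 0.00833) and -0.28 for Col4a2 (limma adjusted p = 0.00642), where with it the values were -0.30 (limma adjusted p = 0.094) and -0.16 (limma adjusted p = 0.145). Without the other control array, 8182, they were -0.11 (limma adjusted p = 0.655) and -0.03 (limma adjusted p = 0.892), so the averaged values of both genes turn on which control array is kept. Lamc1, a laminin gamma chain gene, gave -0.01 ± 0.06 without Doxy (95% interval -0.13 to 0.11) and -0.04 ± 0.05 with it (95% interval -0.14 to 0.07). Its brightest probe set had a mean of 8.54, while another, at 4.22, was too dim to be tested.

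Fibrillar collagens, the load-bearing fibres of scar and interstitium, had no call in either direction. Limma called 0 of 6 tested in every comparison, with unadjusted counts from 0 to 2. Col1a1, the gene of the main chain of collagen I (chromosome 11, 94936224 to 94953042), read 8.21 and 8.50 in FVBN control and 8.08 to 8.57 in tTA (median 8.39). The groups overlapped and the difference was 0.03 ± 0.10 (95% interval -0.18 to 0.23, limma adjusted p = 0.926). Under Doxy it read 8.44, 8.55, 8.54 and 8.52 in FVBN and 8.39, 8.53, 8.29, 8.32 and 8.26 in tTA, a difference of -0.15 ± 0.08 (95% interval -0.32 to 0.02, limma adjusted p = 0.297). Col3a1 (chromosome 1, 45311538 to 45349706) read 7.99 and 8.34 in FVBN control and 7.80 to 8.30 in tTA (median 7.98), a difference of -0.13 ± 0.11 (95% interval -0.36 to 0.09). Under Doxy its difference was -0.18 ± 0.09 (95% interval -0.37 to 0.01, limma adjusted p = 0.271). The values without Doxy turned on the control arrays: without array 8177 they were -0.12 for Col1a1 and -0.31 for Col3a1, and without array 8182 they were 0.18 and 0.04 (limma adjusted p from 0.454 to 0.928). The other tested probe set of Col1a1 gave 0.15 ± 0.10 without Doxy (limma adjusted p = 0.428) and -0.16 ± 0.08 with it (limma adjusted p = 0.224).

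Col1a2, the second chain of collagen I (chromosome 6, 4505618 to 4541543), gave 0.13 ± 0.08 without Doxy (limma adjusted p = 0.391) and -0.14 ± 0.06 with Doxy (limma adjusted p = 0.223) at its brightest probe set. Its other tested probe set gave -0.03 ± 0.08 and -0.03 ± 0.07. In FVBN + Doxy its brightest probe set read 8.70, 8.62, 8.76 and 8.68 against 8.47 and 8.49 in FVBN control, with no overlap, and that difference of 0.22 ± 0.08 did not pass (limma adjusted p = 0.377). The other probe set gave -0.09 ± 0.09. Of the 50 tested members this brightest probe set alone has an r suffix, by which the maker marks probes selected with some of its rules dropped.

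The probe sets of Col1a2 also gave opposite answers on how the fibrillar genes vary together. Over the 8 tTA arrays, Col1a1 and Col3a1 rose and fell together (Pearson r = 0.903, exact permutation p = 0.00139, adjusted p = 0.00417, Spearman rho = 0.976, exact permutation p = 0.000397). Without arrays 7292 and 7311, farthest from the median of Col1a1, r was 0.869 (exact permutation p = 0.0194). The brightest Col1a2 probe set ran against both: r = -0.783 with Col1a1 (exact permutation p = 0.0184, adjusted p = 0.0184, rho = -0.714, exact permutation p = 0.0576) and r = -0.872 with Col3a1 (exact permutation p = 0.00769, adjusted p = 0.0115, rho = -0.81, exact permutation p = 0.0218). Without arrays 7294 and 7292 these were -0.572 (exact permutation p = 0.237) and -0.804 (exact permutation p = 0.0653), so the former relation rests on those arrays. At the other Col1a2 probe set, tried after the data were seen, r was 0.777 with Col1a1 (exact permutation p = 0.0212) and 0.865 with Col3a1 (exact permutation p = 0.0068). Without arrays 7311 and 7292 those fell to 0.453 and 0.675 (exact permutation p = 0.361 and 0.175). All tests were two-sided, in a family of 3 pairs. All 8 arrays carry array numbers of the tTA group, of which 9310 and 9322 stand apart, and too few of them fall there for a value of their own.

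**Figure D4:**
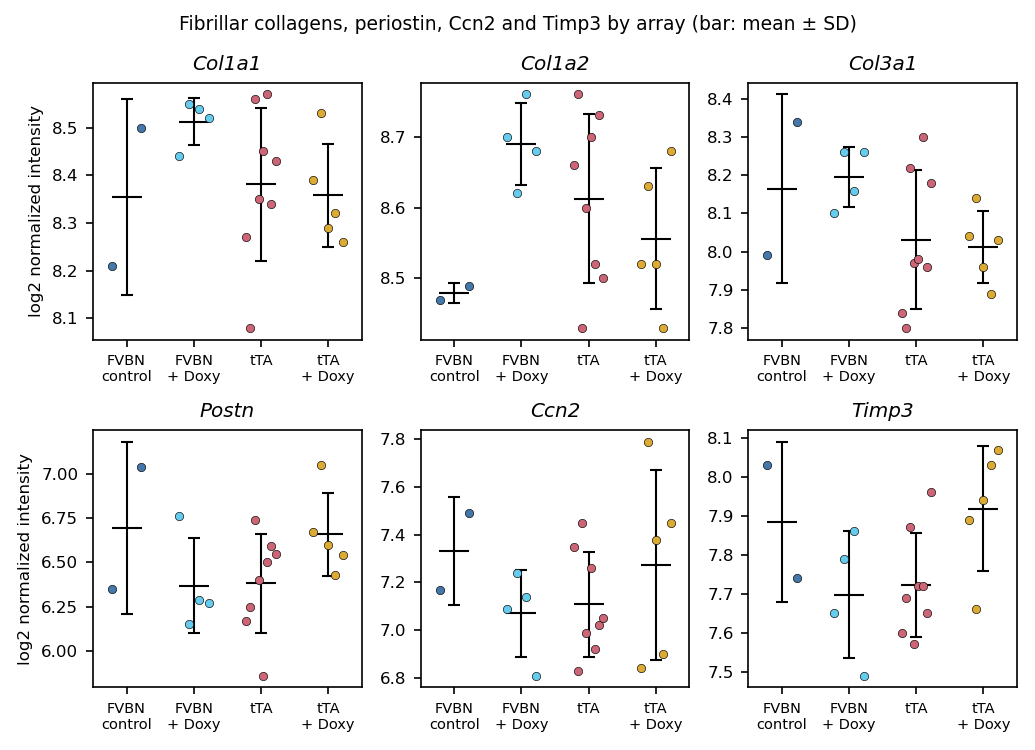
Log2 normalized intensity (vertical axis) of 3 fibrillar collagen genes, periostin (Postn), Ccn2 and Timp3 on each array, by group (horizontal axis); each point is an array, and bars give the mean ± SD. Groups overlap for Col1a1 and Col3a1 in both genotype comparisons, and the 2 FVBN control arrays lie far apart for Postn, at 6.35 and 7.04.

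Of the other collagens, 12 were tested and limma called 0 in every comparison, with unadjusted counts from 1 to 3. In the genotype difference under Doxy 9 of 12 were lower and the median was -0.0806. Col6a1 and Col6a2 encode chains of collagen VI, which forms beaded filaments beside the basement membrane. Col6a1 (chromosome 10, 76708792 to 76726044) read 8.40, 8.37, 8.51 and 8.49 in FVBN + Doxy and 8.28, 8.32, 8.34, 8.25 and 8.28 in tTA + Doxy. These did not overlap, and the difference was -0.15 ± 0.05 (95% interval -0.25 to -0.05, limma adjusted p = 0.0689). Without Doxy it was 0.07 ± 0.06 (95% interval -0.05 to 0.19). The other tested probe set of Col6a1 gave -0.13 ± 0.09 without Doxy and -0.14 ± 0.07 with it (limma adjusted p = 0.459 and 0.254). Col6a2 gave -0.12 ± 0.09 under Doxy (95% interval -0.32 to 0.07) and Col9a1, of collagen IX, -0.06 ± 0.05 (95% interval -0.17 to 0.04).

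Among the metalloproteinases only Mmp14, Mmp9 and Mmp16 of 13 were bright enough to be tested, and limma called 0 of these 3 in every comparison, with unadjusted counts of 0 or 1. Mmp14, a membrane-bound protease that cuts collagen I and activates Mmp2, gave 0.07 ± 0.07 without Doxy (95% interval -0.06 to 0.21) and -0.11 ± 0.06 with Doxy (95% interval -0.22 to 0.01, limma adjusted p = 0.268). Mmp9, a gelatinase carried largely by white blood cells, gave 0.01 ± 0.07 (95% interval -0.13 to 0.15) and -0.02 ± 0.06 (95% interval -0.14 to 0.10). These are from a probe set with a mean of 6.32, while another Mmp9 probe set stood at the floor of 3.85 in every group. Mmp16 gave 0.12 ± 0.06 (95% interval 0.00 to 0.23, limma adjusted p = 0.287) and -0.01 ± 0.05 (95% interval -0.11 to 0.08). All 6 of these intervals lay between -0.22 and 0.23 on the log2 scale.

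The 3 inhibitors were all tested and limma called 0 in every comparison, with unadjusted counts of 0 or 1. Timp3, the inhibitor that binds to the matrix itself (chromosome 10, 86300412 to 86349505), read 7.65, 7.79, 7.86 and 7.49 in FVBN + Doxy and 7.89, 7.66, 7.94, 8.03 and 8.07 in tTA + Doxy. Of the latter, 4 lay above every FVBN + Doxy array and array 7424 lay among them. The difference was 0.22 ± 0.09 (95% interval 0.03 to 0.41, limma adjusted p = 0.162), and 0.34 with the beta-actin ratio in the fit (adjusted p = 0.0487). Without Doxy Timp3 read 8.03 and 7.74 in FVBN control and 7.57 to 7.96 in tTA (median 7.71), a difference of -0.16 ± 0.11 (limma adjusted p = 0.478). The interaction was 0.38 ± 0.14 (95% interval 0.09 to 0.68, limma adjusted p = 0.265) and did not pass. Timp1, the inhibitor that rises in injured hearts, gave 0.16 ± 0.08 without Doxy (95% interval -0.01 to 0.32, limma adjusted p = 0.324) and -0.04 ± 0.07 with it. Its brightest probe set had a mean of 8.76, while another stood at the floor of 3.85 in every group. Timp2 gave 0.08 ± 0.10 and 0.08 ± 0.08.

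Matricellular proteins and proteoglycans had no call. Limma called 0 of 8 in every comparison, with unadjusted counts of 0 or 1. Postn, the gene of periostin, a protein of activated fibroblasts (chromosome 3, 54359267 to 54391041), read 6.35 and 7.04 in FVBN control and 5.86 to 6.74 in tTA (median 6.45). Under Doxy it read 6.76, 6.15, 6.29 and 6.27 in FVBN and 6.67, 7.05, 6.60, 6.43 and 6.54 in tTA. The groups overlapped in both comparisons. The differences were -0.31 ± 0.22 without Doxy (95% interval -0.77 to 0.15, limma adjusted p = 0.505) and 0.29 ± 0.19 with Doxy (95% interval -0.10 to 0.69, limma adjusted p = 0.386). The interaction of 0.61 ± 0.29 did not pass either (limma adjusted p = 0.342). The value without Doxy was -0.65 without control array 8177 and 0.03 without control array 8182 (limma adjusted p = 0.428 and 0.978).

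Ccn2, which fibroblasts and muscle cells raise under transforming growth factor beta (chromosome 10, 24595442 to 24598683), read 7.17 and 7.49 in FVBN control and 6.83 to 7.45 in tTA (median 7.04), a difference of -0.22 ± 0.21 (95% interval -0.67 to 0.22). In tTA + Doxy the arrays were far apart, at 6.84, 7.79, 7.38, 6.90 and 7.45, against 7.09, 7.24, 7.14 and 6.81 in FVBN + Doxy. That difference was 0.20 ± 0.18 (95% interval -0.17 to 0.58). Sparc, a collagen-binding protein, gave -0.23 ± 0.14 without Doxy (95% interval -0.53 to 0.06) and -0.08 ± 0.12 with it. Its value without Doxy was -0.49 without array 8177 and 0.03 without array 8182, and that of Ccn2 was -0.38 and -0.06. Vcan, the gene of versican, gave -0.07 ± 0.09 and 0.14 ± 0.08 (95% interval -0.03 to 0.30).

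The small leucine-rich proteoglycans, which bind collagen fibrils and set their width, had no call. Dcn, the gene of decorin (chromosome 10, 97479500 to 97518163), read 10.86 and 10.76 in FVBN control, 10.43 to 11.21 in tTA (median 10.85), 10.70, 10.80, 10.88 and 10.72 in FVBN + Doxy, and 10.62, 10.70, 10.85, 10.61 and 10.78 in tTA + Doxy. All groups overlapped, and the genotype differences were 0.03 ± 0.13 (95% interval -0.24 to 0.29) and -0.06 ± 0.11 (95% interval -0.29 to 0.16). Bgn, the gene of biglycan, gave 0.00 ± 0.10 and -0.07 ± 0.09, and its other tested probe set gave 0.15 ± 0.08 and -0.08 ± 0.07 (limma adjusted p = 0.34 and 0.527). Lum, the gene of lumican, gave 0.08 ± 0.13 and 0.21 ± 0.11 (95% interval -0.02 to 0.44, limma adjusted p = 0.287). Lum read 8.08, 7.93, 8.18 and 8.11 in FVBN + Doxy, below the 8.31 and 8.44 of FVBN control, and that Doxy difference of -0.30 ± 0.14 did not pass (limma adjusted p = 0.417).

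Spread within a group, pooled over the 4 groups, was highest for Postn (SD 0.286), Ccn2 (0.274), Col4a1 (0.221), Sparc (0.193), Lum (0.181) and Dcn (0.175). It was lowest for Mmp16 (0.061) and Col4a4 (0.050), the latter singled out after its value was seen. The median was 0.102 over the 50 tested members and 0.084 over all 5658 tested genes.

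The 20 dim members were below the brightest 60% of probe sets, whose lowest tested mean was 5.47 on the log2 scale. They were 10 of the 13 metalloproteinases (Mmp2, Mmp3, Mmp7, Mmp8, Mmp10, Mmp11, Mmp12, Mmp13, Mmp17 and Mmp24), 7 collagens (Col2a1, Col4a3, Col10a1, Col11a1, Col12a1, Col19a1 and Col22a1), Lama1, Fbn2 and Lox. Mmp8 and Mmp10 stood at the floor of 3.85 on all 19 arrays, so they have no measured level here, and Mmp13 stood there on 16. Mmp2, the gelatinase of resting fibroblasts, ran from 4.56 to 5.01, and Col12a1 from 5.30 to 5.66. Another 15 dim members, Mmp2 and Col12a1 among them, stood at the floor on no array. A low transcript and a poorly binding probe cannot be told apart here.

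Genes that act on the matrix held 1 or 2 calls per list in the averaged genotype difference, where 9.56% of all tested genes were called. Of 16 tested genes of the TGF-beta pathway, which drives collagen synthesis, 1 fell under Doxy and in the averaged difference: Tgfb1, the ligand, at -0.18 ± 0.05 (limma adjusted p = 0.0339) and -0.17 ± 0.04 (limma adjusted p = 0.00516). None of the 16 was called without Doxy, with 2 at an unadjusted p below 0.05. Of 11 collagen processing genes, limma called 0 in each separate genotype comparison (2 and 3 at an unadjusted p below 0.05), and P4ha2, a prolyl hydroxylase subunit, rose in the averaged one (0.18 ± 0.04, limma adjusted p = 0.0094). Of 13 other matrix proteases and inhibitors, Ctsl, the gene of cathepsin L, rose under Doxy (0.25 ± 0.07, limma adjusted p = 0.0288) and in the average (0.22 ± 0.05, limma adjusted p = 0.00948), where Adam9 rose too (0.27 ± 0.08, limma adjusted p = 0.0321). Median differences of these lists lay between -0.0422 and 0.0432 in both separate genotype comparisons.

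Matrix receptors, through which cells hold the matrix, had a single called gene. Of 14 tested matrix receptors 1 rose, Dag1, which encodes dystroglycan, the laminin receptor of heart muscle: 0.25 ± 0.06 without Doxy (limma adjusted p = 0.0196), 0.19 ± 0.05 with Doxy (limma adjusted p = 0.0212) and 0.22 ± 0.04 averaged (limma adjusted p = 0.000564). None of the integrins, discoidin receptors or syndecans tested was called. Of 21 other matrix proteins, limma called 0 in each separate genotype comparison (3 and 4 at an unadjusted p below 0.05), and Sparcl1, a relative of Sparc, fell in the average (-0.29 ± 0.06, limma adjusted p = 0.00456). In both comparisons of Doxy and in the interaction limma called 0 genes of these 5 lists, with unadjusted counts from 0 to 4.

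In bulk tissue, fewer cells of a type and less RNA per cell cannot be told apart. Summed intensity of the fibroblast markers (9 of 10 tested) was 1490 to 1510 in FVBN + Doxy and 1330 to 1430 in tTA + Doxy, with no overlap. It was 1420 to 1450 in FVBN control and 1350 to 1460 in tTA, which overlapped. Mean sums in FVBN and tTA were 1500 and 1380 with Doxy, and 1430 and 1400 without it. Whether these sums bear on the calls of members was not tested. Of the 9 markers 1 fell, Gas1, by 0.28 ± 0.06 without Doxy and 0.28 ± 0.05 with it (limma adjusted p = 0.00605 and 0.00102). Endothelial markers (8 of 10 tested) summed to 2240 to 2270 in FVBN control, 1940 to 2270 in FVBN + Doxy, 2010 to 2170 in tTA and 1920 to 2080 in tTA + Doxy. Emcn fell without Doxy (-0.28 ± 0.07, limma adjusted p = 0.0265) and none of the 8 was called with it, where 1 had an unadjusted p below 0.05. In the averaged genotype difference Emcn (-0.19 ± 0.04, limma adjusted p = 0.00826) and Cdh5 (-0.20 ± 0.06, limma adjusted p = 0.0282) fell. These were 2 of 8, where 9.56% of all tested genes were called.

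Smooth muscle and pericyte markers (8 of 10 tested) summed to 1360 to 1430 in FVBN control, 1180 to 1320 in FVBN + Doxy, 962 to 1160 in tTA and 1050 to 1270 in tTA + Doxy. Their members went both ways: Acta2 fell by 1.27 ± 0.20 without Doxy (limma adjusted p = 0.00151) and by 0.66 ± 0.17 with it (limma adjusted p = 0.0278), while Myl9 rose with Doxy by 0.53 ± 0.06 (limma adjusted p = 1.75e-05). In the averaged difference Abcc9 fell (-0.52 ± 0.09, limma adjusted p = 0.0011) and Smtn rose (0.22 ± 0.05, limma adjusted p = 0.00547). Macrophage markers (10 of 11 tested) summed to 1440 to 1540, 1580 to 1740, 1280 to 1530 and 1360 to 1670 in the same order of groups. Cd14 fell under Doxy (-0.19 ± 0.05, limma adjusted p = 0.034), and Lyz2 (-0.28 ± 0.08, limma adjusted p = 0.0401) and Csf1r (-0.14 ± 0.03, limma adjusted p = 0.0126) fell in the average. These were 1 of 10 and 2 of 10 macrophage markers, where 6.2% and 9.56% of all tested genes were called. Without Doxy, Gas1, Emcn, Acta2 and Abcc9 were called lower (Abcc9 at -0.66 ± 0.14, limma adjusted p = 0.0131). Of the 12 cardiomyocyte markers 1 was called without Doxy, Ryr2, which fell (-0.82 ± 0.10, limma adjusted p = 5.94e-05). It fell with Doxy too (-0.58 ± 0.09, limma adjusted p = 0.000527), where Mybpc3 rose (0.31 ± 0.05, limma adjusted p = 0.00104). Ckm fell in the average (-0.20 ± 0.05, limma adjusted p = 0.026). The dim markers of the fibroblast, endothelial, smooth muscle and macrophage lists were Twist1, Myh11 and Mrc1, with mean log2 levels of 4.76, 5.40 and 5.01, above the floor. Red blood cell markers (2 tested) summed to 4620 to 5130, 5120 to 5620, 2550 to 4630 and 2450 to 5380, and limma called 0 of them in every comparison, with unadjusted counts from 0 to 2. The part that such markers play in the differences of Loxl1, Fbln1, Eln, Lama5 and Lamb2 was not tested.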

How the data were processed

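RNA of mouse heart ventricle was read on 20 arrays, of which 19 have a group in the labels. The deposited table holds linear intensity; how the authors summarised, background-corrected and normalized them is not given in the sources used here. After 66 control probe sets were left out, 12422 remained, of which a platform annotation linked 10833 to 1 gene, 396 to several and 1193 to none; 10817 were matched by gene number to a RefSeq gene table (GRCm38.p6), which also gave positions and promoter sequences. Intensities were quantile normalized (R 4.3.3, limma 3.58.1), floored at 14.37, their 10th percentile, and log2-transformed. The brightest 60% were then tested in limma with 4 group means, moderated variances along an intensity trend and Benjamini-Hochberg adjustment per comparison. The fit was tested on simulated data. Named are called members, the 3 brightest per role, the 5 largest changes per comparison and dim members by name. Members, roles and gene lists were chosen with earlier results of these data known. Correlations used exact permutation tests (Python 3.11.15, scipy 1.17.1) and figures matplotlib 3.10.9. An array is counted in a direction by its side of the other group's mean. The array with no group entered no comparison.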

Additional observations from a re-analysis of the deposited data

Results flagged for a closer look

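Within groups of 4 to 10 arrays, 84 combinations of a named gene and a group were looked at for an array far from the rest, and chance alone marks about 1 in 20. This marked 2. Timp2 read 6.60 on tTA array 7288, the lowest of 8, where the nearest array read 6.86, a gap of 0.548 of the group's range. Mmp9 read 6.50 on FVBN + Doxy array 8337, the highest of 4, where the nearest read 6.33, a gap of 0.847 of the range.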

How the results depend on the processing

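No paired analysis was possible because the array numbers are not shared between groups. In tTA against FVBN control the count of called members went from 1 to 0 with all probe sets tested, with the brightest 40% (which leave Loxl1 out), with the beta-actin ratio in the fit and with only the arrays compared, and ran from 0 to 1 with an array left out. In tTA + Doxy against FVBN + Doxy the count of 3 became 1 under median scaling of the arrays and with the deposited values as they are (Col17a1 in both, singled out after its values were seen, and none of the 3), 0 when every probe set was tested, and 7 with array weights, the 3 among them. With an array left out it ran from 0 (without 7488) to 5 (without 7292). The averaged genotype count of 3 became 0 with the beta-actin ratio in the fit and ran from 1 to 3 with an array left out. Of the 7 called differences 0 passed under every alternative, and of 161 uncalled ones 9 passed under at least 1. Fbln1, averaged, was -0.28 (limma adjusted p = 0.000156), -0.07 and 0.01 at its 3 other tested probe sets. In both comparisons of Doxy and the interaction, counts stayed at 0 under the alternatives run, leaving out arrays included.

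Over the tTA arrays with an array left out, r ran from -0.880 to -0.711 for Col1a2 and Col1a1, from -0.898 to -0.826 for Col1a2 and Col3a1, and from 0.877 to 0.941 for Col1a1 and Col3a1. The pairs with Col1a2 missed an adjusted p of 0.05 without 7292 (exact permutation adjusted p = 0.0855 and 0.0509), and that with Col1a1 also without 7294 (0.0613). At the other Col1a2 probe set, an alternative chosen after seeing the data, both pairs turned positive, at 0.777 and 0.865. The cause was not tested. Signal over background limits the 20 dim members.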

Other observations

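A further array, with a title that gives neither a number nor a treatment, was put in no group. On the deposited linear scale it read 59.95 for Loxl1, where FVBN control arrays read 44.23 to 48.69 and tTA arrays 52.62 to 62.67. All grouped arrays, those with Doxy included, ran from 44.23 to 66.75, and separate ranges of the groups with Doxy are not given here. For Fbln1 it read 357.1, within the 317.7 to 430.5 of all grouped arrays and below the 402.1 to 430.5 of FVBN control. For Lamb2 it read 204.3, below the 224.4 to 247.2 of FVBN control and within the 174.2 to 217.3 of tTA. Lama5 read 210.4, above the 197.7 to 207.7 of FVBN control and the 177.3 to 194.6 of tTA, but within the 166.6 to 227.9 of all grouped arrays. Eln read 261.7, above the 247.2 to 248.1 of FVBN control and within the 244.3 to 267.4 of tTA.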
